A study of Rattus norvegicus with 17 samples.

Results

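The glucocorticoid receptor gene Nr3c1 and 7 genes known as its transcriptional targets (Tsc22d3, Ddit4, Fkbp5, Per1, Sgk1, Klf9 and Zbtb16) were followed in CD4+ T cells across 3 vitamin D diets. The 8 genes were picked by symbol from an expression table of 14506 named genes, and each was read by 1 transcript cluster, the set of probes that reports 1 gene on the array. All 8 lay above the level filter that left 10879 genes for testing. Tsc22d3 and Ddit4 were already known to be higher on the deprived than on the regular diet when the genes were chosen, so their values in that comparison are a description and carry no test.

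The cells came from female Dark Agouti rats, an inbred strain prone to experimental autoimmune encephalomyelitis (EAE), a model of multiple sclerosis. EAE was started in every rat with MOG, a myelin protein, so no group was unimmunized, and the rats are described as age matched with no age stated. CD4+ T cells were sorted by FACS from inguinal lymph nodes 7 days after immunization. The diets, eaten from 5 weeks before immunization until the end, differed in vitamin D. The deprived diet held 0 IU (5 arrays), the regular diet 2 IU (6 arrays) and the supplemented diet 10 IU (6 arrays). Each array was hybridized with RNA labelled as 1 biological replicate. The sources used here do not say which amount of feed holds these IU, and no corticosterone or vitamin D level was analysed.

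The glucocorticoid receptor is a hormone-activated transcription factor. Without hormone it is held in the cytoplasm by the HSP90 chaperone machinery. Once bound to corticosterone, the main glucocorticoid of rats, it enters the nucleus, where it induces some genes through DNA response elements and restrains inflammatory factors such as AP-1 and NF-kappaB. In T cells glucocorticoids are known to curb activation and cytokine production and to promote death of immature cells, and adrenal corticosterone is known to limit EAE in rats. The question asked here is how the transcripts of the receptor and its targets stood at each level of dietary vitamin D.

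The 250 bases upstream of the annotated start are shown for Tsc22d3 and Ddit4, the pair that stood furthest above the regular diet on the deprived diet, and for Fkbp5 and Klf9, which moved in opposite directions on the supplemented diet. They are RefSeq sequences of build GRCr8, read 5′ to 3′ on the strand of the gene. The Tsc22d3 window (chrX:109010035-109010284, minus strand) belongs to the most downstream of 3 annotated starts. The Ddit4 window is chr20:28437038-28437287 (minus strand), that of Fkbp5 is chr20:6543556-6543805 (minus strand) and that of Klf9 is chr1:230126396-230126645 (plus strand). Capitals mark the forkhead motif GTAAACA on either strand, the cAMP response motif TGACG and the TATA box TATAAA, none of which stood in the Ddit4 and Fkbp5 windows.
Tsc22d3: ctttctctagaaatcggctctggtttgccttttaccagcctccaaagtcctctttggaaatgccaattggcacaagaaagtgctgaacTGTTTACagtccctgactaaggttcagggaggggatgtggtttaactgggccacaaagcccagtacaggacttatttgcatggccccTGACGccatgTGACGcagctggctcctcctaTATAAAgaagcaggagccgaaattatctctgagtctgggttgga
Ddit4: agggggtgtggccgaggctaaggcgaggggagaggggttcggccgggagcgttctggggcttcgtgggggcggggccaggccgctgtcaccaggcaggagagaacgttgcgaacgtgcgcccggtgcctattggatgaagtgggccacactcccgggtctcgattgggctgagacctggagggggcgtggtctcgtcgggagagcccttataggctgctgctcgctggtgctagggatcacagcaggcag
Fkbp5: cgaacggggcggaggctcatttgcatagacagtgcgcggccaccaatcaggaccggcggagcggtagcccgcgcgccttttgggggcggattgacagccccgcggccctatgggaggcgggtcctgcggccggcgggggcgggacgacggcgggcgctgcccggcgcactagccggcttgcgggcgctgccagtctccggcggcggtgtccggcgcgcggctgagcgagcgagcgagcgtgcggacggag
Klf9: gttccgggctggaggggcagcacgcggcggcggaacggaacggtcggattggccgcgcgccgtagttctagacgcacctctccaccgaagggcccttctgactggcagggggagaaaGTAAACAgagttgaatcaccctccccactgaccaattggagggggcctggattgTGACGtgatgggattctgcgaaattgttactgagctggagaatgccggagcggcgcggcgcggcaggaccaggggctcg

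RefSeq windows were found for 7 of the 8 genes, with 12 annotated starts in all, and Zbtb16 had no entry. Of 7 motifs searched on both strands, the forkhead motif stood in 2 of the 12 windows, those of Tsc22d3 (162 bases before the start) and Klf9 (133 bases before it), against 3.21% of 33469 rat promoter windows of the same length. The motif TGACG stood in the same windows, at 75 and 65 bases before the Tsc22d3 start and at 79 bases before the Klf9 start, against 18.2% of promoters. TATAAA stood in the Tsc22d3 window at 44 bases and in 2 Sgk1 windows at 55 and 33 bases, against 12.9%. The full glucocorticoid response element (AGAACA, any 3 bases, then TGTTCT) was in 0 of the 12 windows and in 4 of all promoters searched (0.012%). Its first part, AGAACA, was also in 0 of the 12, against 17.5% of promoters. The E-box CACGTG (5.59% of promoters) and the vitamin D response element (AGGTCA, any 3 bases, then AGGTCA; 0.0209%) were in none of the 12 windows. These counts describe letters in short windows and were not tested against the diets.

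Nr3c1, the receptor gene itself (transcript cluster 10804132), varied little between the diets. Its log2 level was 9.34, 9.13, 9.14, 9.30 and 9.30 in the deprived arrays, 8.97 to 9.27 with a median of 9.07 in the regular arrays, and 8.99 to 9.25 with a median of 9.14 in the supplemented arrays. The ranges of the 3 diets overlapped. The deprived mean stood 0.16 above the regular mean (95% interval 0.01 to 0.30, limma adjusted p = 0.265). The supplemented mean stood 0.04 above the regular mean (interval -0.10 to 0.18, limma adjusted p = 0.678) and 0.12 below the deprived mean (a difference of -0.12, interval -0.26 to 0.03, limma adjusted p = 0.168). The sign of the supplemented differences depended on the scaling. Quantile normalization of the table raised the supplemented minus regular difference to 0.21 (limma adjusted p = 0.0230) and cyclic loess to 0.20 (0.0294), while median centring of the arrays gave -0.04. Supplemented minus deprived was 0.12 and 0.11 under the first pair of scalings.

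Tsc22d3 (transcript cluster 10939516) encodes GILZ, a leucine zipper protein that binds AP-1 and NF-kappaB subunits and carries much of the anti-inflammatory action of glucocorticoids in T cells. Its level was 9.20, 8.99, 9.19, 8.80 and 8.95 in the deprived arrays, 8.24 to 8.68 (median 8.33) in the regular arrays and 7.81 to 8.55 (median 8.17) in the supplemented arrays. Every deprived array lay above every array of the other diets, and the regular and supplemented ranges overlapped. Deprived minus regular was 0.63 (SE 0.11), a level 1.55-fold that of the regular diet.

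Ddit4 (transcript cluster 10832920) encodes REDD1, an inhibitor of the growth kinase complex mTORC1 that stress and glucocorticoids induce. It read 8.87, 8.89, 8.83, 8.63 and 8.84 in the deprived arrays, 8.13 to 8.38 (median 8.26) in the regular arrays and 8.10 to 8.62 (median 8.41) in the supplemented arrays. The lowest deprived array, replicate 5, stood just above the highest supplemented one, and all deprived arrays stood clear of the regular range. Deprived minus regular was 0.55 (SE 0.08), a 1.46-fold level.

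On the supplemented diet the Tsc22d3 and Ddit4 means did not pass the threshold against the regular diet. The regular arrays had entered the choice of both genes, as had the deprived arrays. The limma p-values of this comparison are therefore given as a description. Tsc22d3 differed by -0.19 (95% interval -0.40 to 0.02, limma adjusted p = 0.153), and without supplemented replicate 4 by -0.26 (limma adjusted p = 0.0467). Ddit4 differed by 0.12 (interval -0.04 to 0.28, limma adjusted p = 0.230). Under quantile normalization Ddit4 passed at 0.25 (limma adjusted p = 0.0245), and under cyclic loess at 0.24 (0.0262). Against the deprived diet, whose arrays had entered the choice of both genes, Tsc22d3 differed by -0.82 (SE 0.11) and Ddit4 by -0.43 (SE 0.08).

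**Figure D1:**
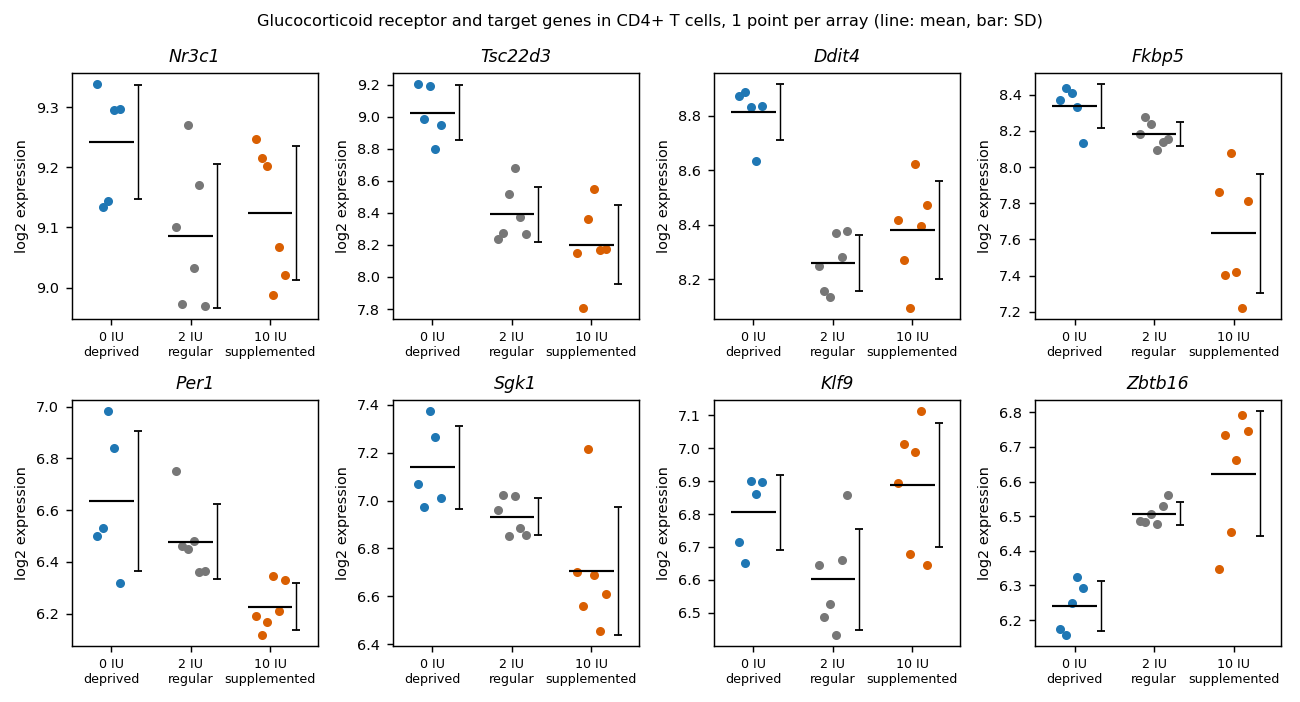
Log2 expression of the 8 genes, 1 point per array, for the deprived (0 IU, 5 arrays), regular (2 IU, 6 arrays) and supplemented (10 IU, 6 arrays) diets, with the mean as a line and the SD as a bar, on axes scaled per gene. Tsc22d3 and Ddit4 stand highest on the deprived diet, at means of 9.02 and 8.81, and Fkbp5 stands lowest on the supplemented diet, at a mean of 7.63.

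Fkbp5 (transcript cluster 10831940) encodes FKBP51, an HSP90 co-chaperone that lowers the affinity of the receptor for hormone and is induced by that receptor, forming a short feedback loop. It fell on the supplemented diet. Its level was 8.37, 8.44, 8.41, 8.33 and 8.13 in the deprived arrays, 8.10 to 8.28 (median 8.17) in the regular arrays and 7.22 to 8.08 (median 7.62) in the supplemented arrays. No supplemented array reached the lowest regular or deprived array, and the supplemented arrays were the most scattered, with an SD of 0.33 against 0.07 for the regular arrays. Supplemented minus regular was -0.55 (SE 0.11, 0.684-fold, limma adjusted p = 0.0005), and supplemented minus deprived was -0.70 (SE 0.11, limma adjusted p = 3.67e-05). Deprived minus regular was 0.16 (interval -0.08 to 0.39, limma adjusted p = 0.519).

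Sgk1 (transcript cluster 10717331) encodes a serum- and glucocorticoid-induced kinase that acts downstream of PI3K and mTORC2. It read 7.07, 6.97, 7.37, 7.27 and 7.01 in the deprived arrays, 6.85 to 7.02 (median 6.92) in the regular arrays and 6.46 to 7.22 (median 6.65) in the supplemented arrays. Of the supplemented arrays 5 lay below every regular array, and replicate 3, at 7.22, lay above them all. Supplemented minus regular was -0.23 (SE 0.10, limma adjusted p = 0.0762). Without replicate 3 it was -0.33 (limma adjusted p = 0.00179). Supplemented minus deprived was -0.43 (SE 0.10, limma adjusted p = 0.0018), and deprived minus regular was 0.21 (interval -0.01 to 0.42, limma adjusted p = 0.319).

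Per1 (transcript cluster 10734882) encodes a repressor of the circadian clock that glucocorticoids induce within hours. It read 6.50, 6.53, 6.98, 6.84 and 6.32 in the deprived arrays, 6.36 to 6.75 (median 6.46) in the regular arrays and 6.12 to 6.34 (median 6.20) in the supplemented arrays. The supplemented arrays lay below every regular array but overlapped the lowest deprived array. Supplemented minus regular was -0.25 (SE 0.09, 0.840-fold, limma adjusted p = 0.0406) and supplemented minus deprived -0.41 (SE 0.10, limma adjusted p = 0.00188). The first of these calls was close to the threshold: it held in 9 of the 17 fits that each left out 1 array, and was lost without supplemented replicate 1, 2, 3 or 5 or regular replicate 1, 2, 3 or 4, with limma adjusted p up to 0.113. Deprived minus regular was 0.16 (interval -0.05 to 0.36, limma adjusted p = 0.439).

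Klf9 (transcript cluster 10714413) encodes a Krüppel-like transcription repressor induced by glucocorticoid and thyroid hormones. It read 6.71, 6.65, 6.90, 6.86 and 6.90 in the deprived arrays, 6.43 to 6.86 (median 6.59) in the regular arrays and 6.65 to 7.11 (median 6.94) in the supplemented arrays. The regular diet had the lowest mean of the 3, although the ranges overlapped. Klf9 rose on the supplemented diet by 0.29 over the regular diet (SE 0.08, 1.22-fold, limma adjusted p = 0.0131). Median centring lowered this to 0.21 (limma adjusted p = 0.0596). Deprived minus regular was 0.20 (interval 0.02 to 0.39, limma adjusted p = 0.250), and supplemented minus deprived was 0.08 (interval -0.10 to 0.27, limma adjusted p = 0.445), turning to -0.02 under median centring.

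Zbtb16 (transcript cluster 10917116) encodes PLZF, a zinc finger factor that glucocorticoids induce in several cell types and that marks innate-like T cells. It ran the other way from Tsc22d3, with its lowest levels on the deprived diet. It read 6.18, 6.16, 6.25, 6.32 and 6.29 in the deprived arrays, 6.48 to 6.56 (median 6.50) in the regular arrays and 6.35 to 6.79 (median 6.70) in the supplemented arrays. All deprived arrays lay below all arrays of the other diets, and the supplemented range enclosed the regular one. Deprived minus regular was -0.27 (SE 0.07, limma adjusted p = 0.0624), just short of the threshold. It passed with only these diets in the fit (limma adjusted p = 0.0108), with array weights (0.00882), with the lowest 50% of genes left out (0.0464), with the replicate number as a block (0.0445) and without supplemented replicates 2 and 5 (0.0349). Leaving out 1 array at a time, it passed in 3 of 17 fits, those without supplemented replicate 1, 3 or 5, with limma adjusted p from 0.0314 to 0.142. With array spread as a covariate it differed by -0.18 (limma adjusted p = 0.207). Supplemented minus deprived was 0.38 (SE 0.07, limma adjusted p = 0.000239). Supplemented minus regular was 0.12 (interval -0.03 to 0.26, limma adjusted p = 0.198), and 0.17 without supplemented replicate 1 (limma adjusted p = 0.0407).

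**Figure D2:**
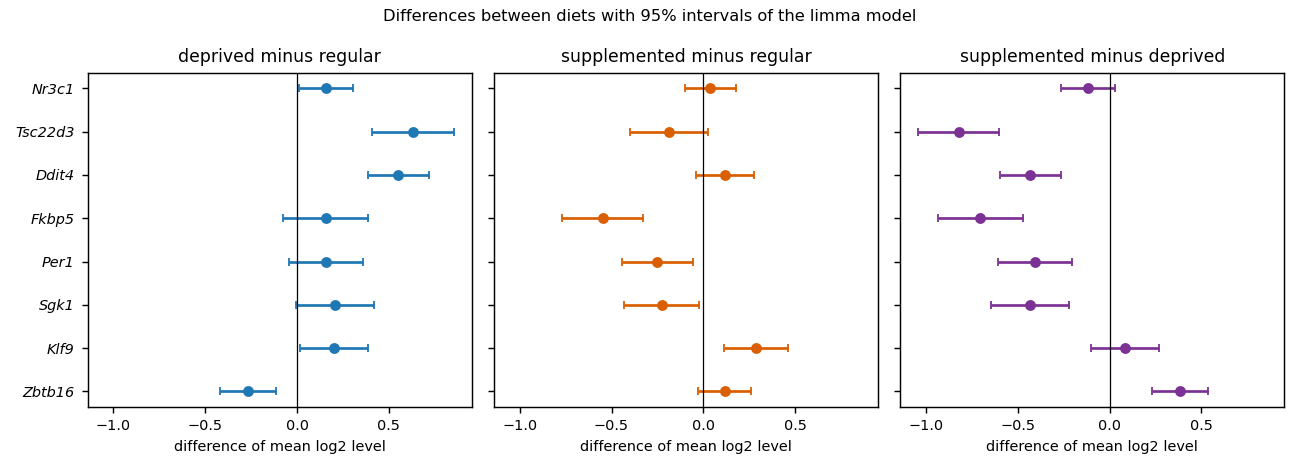
Differences of mean log2 level for the 8 genes in deprived minus regular, supplemented minus regular and supplemented minus deprived, with points for the estimates and bars for the 95% intervals of the limma model. Tsc22d3 and Ddit4 lie furthest right in deprived minus regular, at 0.63 and 0.55, and Fkbp5 lies furthest left in supplemented minus regular, at -0.55. Tsc22d3 and Ddit4 were chosen as higher in deprived minus regular, so their place and intervals there are a description and no test.

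The 8 genes did not share 1 order of the diets. In the deposited scaling Tsc22d3, Fkbp5, Per1 and Sgk1 had means that descended from the deprived through the regular to the supplemented diet, Zbtb16 had means that ascended, and Ddit4, Klf9 and Nr3c1 had their lowest mean on the regular diet. In supplemented minus regular 3 of the 8 genes passed, where 33.7% of all tested genes passed. Tsc22d3 and Ddit4, chosen with the regular arrays in view, were not among the 3. Fkbp5 and Per1 were lower, as were 22.9% of tested genes, and Klf9 was higher, as were 10.8%. Supplemented and regular arrays did not overlap for Fkbp5 and Per1, both lower, against 12.1% of tested genes in either direction and 9.92% lower.

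In supplemented minus deprived, 4 of the 6 genes other than Tsc22d3 and Ddit4 passed, where 47.2% of all tested genes passed. Fkbp5, Per1 and Sgk1 were lower, against 28.6% of tested genes, and Zbtb16 was higher, against 18.6%. Arrays of these diets did not overlap for Fkbp5 (lower, 17.7% of tested genes) and Zbtb16 (higher, 6.4%), against 24.1% in either direction. In deprived minus regular 0 of these 6 passed in limma, with Nr3c1, Klf9 and Zbtb16 at an unadjusted p under 0.05, and 1.67% of tested genes passed. Deprived and regular arrays did not overlap for Zbtb16 (lower, 1.01% of tested genes) and, as known from the choice of genes, for Tsc22d3 and Ddit4 (higher, 4.52%), against 5.53% in either direction. Supplemented minus deprived shares its arrays with the other comparisons and is no separate evidence for them.

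The supplemented arrays stood apart in a way that touches all of these values. The spread of an array, measured as the SD across its 29214 log2 values, was 1.94 ± 0.0271 on the supplemented diet (n = 6), against 2.03 ± 0.0220 on the regular diet (n = 6; exact permutation p = 0.00216, adjusted over 3 comparisons 0.00325). On the deprived diet it was 2.05 ± 0.0166 (n = 5), against the same regular arrays (exact permutation p = 0.0693). With array spread as a covariate, 0 of the 8 genes passed in limma in supplemented minus regular (0 at an unadjusted p under 0.05). In supplemented minus deprived 0 passed (2 unadjusted). Those 2 were Tsc22d3 and Ddit4, chosen with the deprived arrays in view, so their place there is a description and no evidence. The same fit called 0 of all tested genes, with 1192 and 1206 at an unadjusted p under 0.05. Fkbp5 then differed by -0.07 in supplemented minus regular (limma adjusted p = 0.919) and Klf9 by 0.07 (0.901). Per1 differed by -0.17 (0.753) and Zbtb16 by -0.16 (0.613), its sign reversed. In supplemented minus deprived Tsc22d3 and Ddit4 differed by -0.58 and -0.41 in that fit, given as a description. Fkbp5 differed by -0.08 (limma adjusted p = 0.930). Spread and diet nearly coincide for these arrays, so their parts in the supplemented values cannot be told apart.

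Leaving out supplemented replicates 2 and 5, the arrays with the smallest spread, was tried after the data had been seen. Fkbp5 still passed in supplemented minus regular, at -0.39 (limma adjusted p = 0.00553). Per1 then differed by -0.22 (limma adjusted p = 0.149) and Klf9 by 0.20 (0.114), so 1 of the 8 genes passed, where 20% of all tested genes did. In supplemented minus deprived 4 of the 6 genes other than Tsc22d3 and Ddit4 passed, where 33.6% of all tested genes did.

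**Figure D3:**
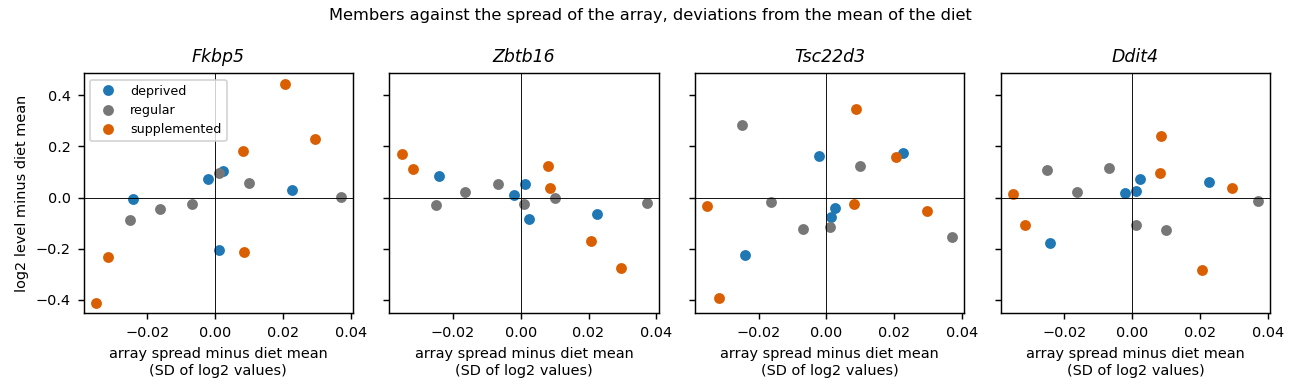
Log2 level of Fkbp5, Zbtb16, Tsc22d3 and Ddit4 on the vertical axis against the spread of the array (SD of its log2 values) on the horizontal axis, both as deviations from the mean of the diet, 1 point per array for deprived, regular and supplemented. Fkbp5 ascends with spread (r = 0.62) and Zbtb16 descends (r = -0.66), neither passing after adjustment, and Ddit4 has r = 0.03.

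The relation of each gene to spread within the diets was read as well. Over the 17 arrays, as deviations from the diet means, Fkbp5 had Pearson r = 0.62 and Spearman rho = 0.62 with spread (permutation p = 0.0241 and 0.0242, adjusted over the 8 genes 0.0963 and 0.0969). Zbtb16 had r = -0.66 and rho = -0.61 (permutation p = 0.0186 and 0.0225, adjusted 0.0963 and 0.0969). Neither passed after adjustment. Without the 2 arrays farthest from the median spread, r was 0.60 for Fkbp5 and -0.65 for Zbtb16. Within the 6 supplemented arrays r was 0.83 for Fkbp5 (exact permutation p = 0.05) and -0.81 for Zbtb16 (exact permutation p = 0.0736). Within the 6 regular arrays it was 0.52 (exact permutation p = 0.299) and -0.24 (0.611). The other 6 genes had r between -0.37 (Klf9) and 0.27 (Sgk1), with adjusted permutation p of at least 0.542. Tsc22d3 and Ddit4, at 0.26 and 0.03, were among these.

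Whether the 8 genes varied together between arrays of 1 diet was asked next, a question that the choice of genes did not use. No pair passed the test. Of 28 pairs of the 8 genes, 14 correlated positively across the 17 arrays as deviations from the diet means, and 0 passed after adjustment over the pairs by Pearson or Spearman permutation tests. At an unadjusted permutation p under 0.05 there were 3 pairs by Pearson r. Fkbp5 and Klf9 had r = -0.68 and rho = -0.71 (permutation p = 0.00852 and 0.0140, adjusted 0.239 and 0.392). Fkbp5 and Sgk1 had r = 0.66 and rho = 0.39 (permutation p = 0.0243 and 0.178, adjusted 0.339 and 0.553), and Nr3c1 and Ddit4 had r = -0.54 and rho = -0.49 (permutation p = 0.0363 and 0.0752, adjusted 0.339 and 0.527). Without the 2 arrays farthest from the median of the first gene, r was -0.51, 0.19 and -0.39 in these pairs, so the relation of Fkbp5 and Sgk1 rests on those arrays. Fkbp5 and Zbtb16 had the r of largest size, -0.70 (permutation p = 0.0542, adjusted 0.379). Tsc22d3 and Ddit4, which both stood high on the deprived diet, had r = 0.37 and rho = 0.37 within the diets (permutation p = 0.222 and 0.171, adjusted 0.601 and 0.553). Within the regular diet and within the supplemented diet, 0 pairs passed after adjustment in exact permutation tests, with 2 and 3 pairs at an unadjusted p under 0.05.

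**Figure D4:**
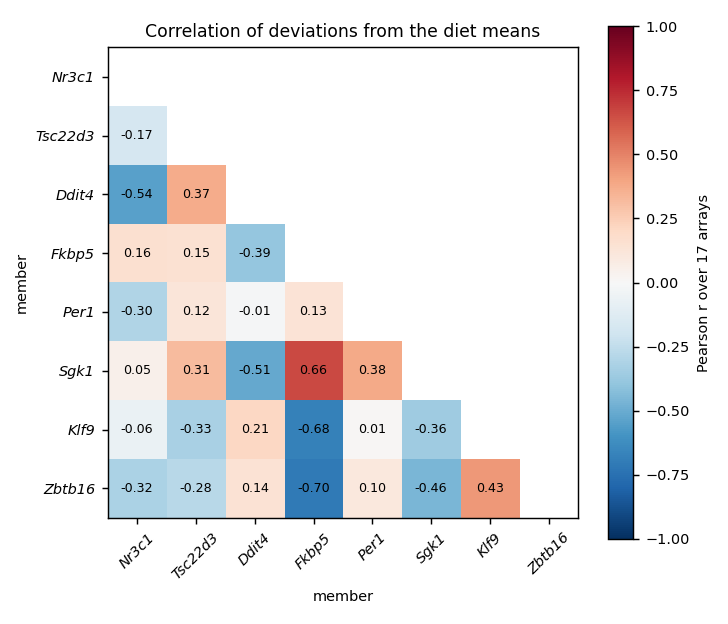
Pearson correlation of each pair of the 8 genes over the 17 arrays, as deviations from the diet means, with r written in each cell and colour from blue (negative) to red (positive). The strongest colours lie in the cells of Fkbp5, at 0.66 with Sgk1, -0.68 with Klf9 and -0.70 with Zbtb16.

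The genes whose deviations from the diet means were most like those of each gene over the 17 arrays were sought among all tested genes, and are given as a description without a test. Such values share the normalization and the spread of each array. For Tsc22d3 they were Kin (r = 0.82), Litaf (0.78) and Hsdl2 (0.78). For Ddit4 they were Egln2 (0.85), Tspan32 (0.80) and Rhot2 (0.79), and for Nr3c1 Exoc4 (0.85), Csnk1g3 (0.85) and Rab6a (0.81). Sgk1 stood closest to Dnajb9 (0.86), Rgs2 (0.85) and Jun (0.84). The largest deviation of Sgk1 was in supplemented replicate 3 (0.51), and how far these likenesses rest on that array was not tested. Fkbp5 had the closest likenesses, to Il18r1 (0.93), H3f3b (0.93) and Hnrnpm (0.92), followed by Zbtb16 with Myt1 (0.92), Prb1 (0.89) and Cdc42ep4 (0.87). For Per1 they were Serhl2 (0.80), Mrpl12 (0.79) and Gpnmb (0.78), and for Klf9 U2af2, Cpsf7 and Snx20 (0.80 each). No gene was named for more than 1 of the 8.

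The chaperone machinery that holds the receptor ready for hormone was next. This list and those below were drawn up with earlier results of these data known. Their counts are therefore a description and no independent support. On the deprived diet 6 of 15 tested genes of this machinery rose over the regular diet and 0 fell, with a median difference of 0.28, where the median of all tested genes was -0.000453 and 1.49% of them rose. Among the 7253 genes left when the lowest 50% were left out, the median was 0.03 and 208 rose. Hsph1, a heat shock co-chaperone of the HSP110 family, averaged 9.72 ± 0.28 in deprived arrays (SD, n = 5) and 8.81 ± 0.14 in regular arrays (SD, n = 6), a difference of 0.91 (limma adjusted p = 0.000124). Dnaja1, an HSP40 partner of HSP70, differed by 0.55 (limma adjusted p = 0.000411). The other 4 were Dnajb1, Stip1, Hsp90aa1 and Hspa8, named to complete the count. Hsph1 and Dnaja1 passed in all 17 fits that left out 1 array, Dnajb1 in 16 (lost without deprived replicate 4), Stip1 in 16 (lost without deprived replicate 6), Hsp90aa1 in 11 and Hspa8 in 9. The number of calls also depended on the scaling, with 3 higher under quantile normalization, 4 under cyclic loess and 6 under median centring. Among all tested genes the split was 162 higher and 20 lower, against 26 and 14 under quantile normalization and 56 and 28 under cyclic loess.

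On the supplemented diet 12 of the 15 chaperone genes fell below the regular diet and 0 rose, with a median difference of -0.41, where the median of all tested genes was 0.000613 and 22.9% of them fell. The chaperone genes are bright, with mean log2 levels from 7.52 to 12.4, and over all tested genes this difference ran against the mean level (r = -0.51 across genes, which are not independent replicates). Among the 7253 brighter genes the median was -0.09 and 2462 fell. St13, the HSP70-interacting protein that helps assemble receptor complexes, averaged 9.69 ± 0.27 in supplemented arrays and 10.6 ± 0.11 in regular arrays (SD, n = 6 each), a difference of -0.92 (limma adjusted p = 1.13e-06). Bag1, an HSP70 nucleotide exchange factor that dampens receptor activity, differed by -0.49 (limma adjusted p = 6.05e-05), and by -0.32 under quantile normalization. Fkbp4, which encodes FKBP52, the HSP90 co-chaperone that opposes FKBP51 at the receptor, fell by 0.59 (limma adjusted p = 0.000434), as its relative Fkbp5 did by 0.55. Under quantile normalization 8 of the 15 fell and 1 rose, and under cyclic loess 6 fell and 1 rose. Without supplemented replicates 2 and 5, 10 fell and 0 rose. With array spread as a covariate 0 chaperone genes were called in limma on the supplemented diet (1 at an unadjusted p under 0.05, median -0.17), as with every other list here, and 2 were called on the deprived diet (median 0.21). Over all tested genes the supplemented minus regular split was 1173 higher and 2488 lower, and 312 and 3343 under median centring, which moved the median of all genes to -0.08 in this comparison and to -0.10 in supplemented minus deprived.

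Genes that handle the hormone did not pass in either comparison with the regular diet, with 0 of 3 tested genes called by limma in each (Hsd11b1, Hsd11b2 and Abcb1a) and 0 at an unadjusted p under 0.05. Differences ran from -0.04 to 0.18 on the deprived diet and from -0.07 to 0.08 on the supplemented diet, both minus regular. Hsd11b1 encodes the enzyme that regenerates active hormone, Hsd11b2 the one that inactivates it, and Abcb1a an efflux pump that exports steroids.

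Coregulators that the receptor recruits to chromatin showed 0 limma calls of 16 on the deprived diet, with 3 at an unadjusted p under 0.05. On the supplemented diet 5 of the 16 fell and 1 rose, shares near those of all tested genes (22.9% lower and 10.8% higher), and the median of -0.07 turned to 0.03 under quantile normalization and 0.02 under cyclic loess. Prmt1, an arginine methyltransferase, differed by -0.67 (limma adjusted p = 1.14e-06). The histone deacetylase genes Hdac1 and Hdac2 differed by -0.50 and -0.37 (limma adjusted p = 0.000151 and 0.000965), with Hdac1 at -0.32 under quantile normalization and Hdac2 at an adjusted p of 0.0503 and 0.0517 under quantile and loess scaling.

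Other genes that glucocorticoids induce were measured for 39 members of a list. On the deprived diet 3 rose and 0 fell, with a median of 0.02, where 1.49% of all tested genes rose and 0.184% fell. Cxcr4, the receptor for the chemokine CXCL12 that draws T cells to bone marrow, rose by 0.60 (limma adjusted p = 0.000124) and Zfp36l2, an RNA-binding protein that destabilizes transcripts, by 0.33 (limma adjusted p = 0.0248). The third, Il7r, the interleukin-7 receptor chain, rose by 0.24 (limma adjusted p = 0.0491) and is named to complete the count. The Cxcr4 call held in all 17 fits that left out 1 array, that of Zfp36l2 in 13 (lost without deprived replicate 2, 4 or 6 or regular replicate 1) and that of Il7r in 4. Under quantile normalization and cyclic loess Zfp36l2 differed by 0.26 in both (limma adjusted p = 0.0873 and 0.0562). On the supplemented diet 11 of the 39 fell and 1 rose. That is 30.8% called, near the 33.7% of all tested genes. Without supplemented replicates 2 and 5, 4 fell and 0 rose, where 20% of all tested genes were called. Dusp1, a phosphatase that switches off MAP kinases, differed by -0.91 (limma adjusted p = 0.00107) and Rhob, a small GTPase, by -0.72 (limma adjusted p = 0.000454). Cxcr4 was among the genes that fell, at -0.18 (limma adjusted p = 0.0481), a call that held in 5 of 17 fits leaving out 1 array and moved to -0.02 under quantile normalization.

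Immune genes that glucocorticoids repress did not move in 1 direction. On the deprived diet 1 of 22 rose and 1 fell, where 1.49% of all tested genes rose and 0.184% fell. Il13, a type 2 cytokine, averaged 6.00 ± 0.13 in deprived arrays (n = 5) and 6.40 ± 0.08 in regular arrays (n = 6), a difference of -0.40 (limma adjusted p = 0.0335). Ccl20, a chemokine that attracts CCR6+ cells, differed by 0.25 (limma adjusted p = 0.0495). Leaving out 1 array at a time kept the Il13 call in 9 of 17 fits and the Ccl20 call in 5, and quantile normalization left neither called. On the supplemented diet 6 of the 22 fell and 2 rose, 36.4% called and near the 33.7% of all tested genes. Without supplemented replicates 2 and 5, 2 fell and 1 rose. Jun, a subunit of AP-1, differed by -1.26 (limma adjusted p = 0.00166) and Cd40lg, the T cell ligand that helps B cells, by -0.75 (limma adjusted p = 2.38e-05). Il13 and Ccl20 both rose there, by 0.25 (limma adjusted p = 0.0361) and 0.18 (limma adjusted p = 0.0279), calls that were lost under quantile normalization, cyclic loess and median centring.

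Around Per1, the circadian clock list had 0 of 15 genes called by limma on the deprived diet (2 at an unadjusted p under 0.05). On the supplemented diet 1 of the 15 rose and 0 fell, 6.67% called against 33.7% of all tested genes: Clock, the activator subunit of the core loop, by 0.24 (limma adjusted p = 0.00289). Per3, a relative of Per1, differed by -0.19 on the deprived diet (limma adjusted p = 0.214) and -0.15 on the supplemented diet (limma adjusted p = 0.135), both minus regular. Around Ddit4, the list of mTORC1 brakes and FoxO-linked genes also holds parts and an activator of mTORC1. It had 0 of 16 called by limma on the deprived diet (2 unadjusted). On the supplemented diet 3 were lower and 1 higher, 25% called against 33.7% of all tested genes. Rheb, the GTPase that activates mTORC1, differed by -0.48 (limma adjusted p = 5.78e-05) and S1pr1, the receptor for T cell exit from lymph nodes, by -0.45 (limma adjusted p = 0.000521). Under quantile normalization these were -0.31 and -0.27. On the deprived diet S1pr1 differed by -0.29 (limma adjusted p = 0.121), and it passed under cyclic loess at -0.36 (0.0337). Paralogs of the 8 genes had 0 of 20 called by limma on the deprived diet (3 unadjusted) and 4 lower on the supplemented diet, near the 22.9% of all tested genes that fell, with Fkbp4 above and Klf7 (-0.46, limma adjusted p = 0.0034; -0.30 under quantile normalization) among them. Tsc22d1, the paralog of Tsc22d3, differed by 0.19 on the deprived diet (limma adjusted p = 0.182).

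**Figure D5:**
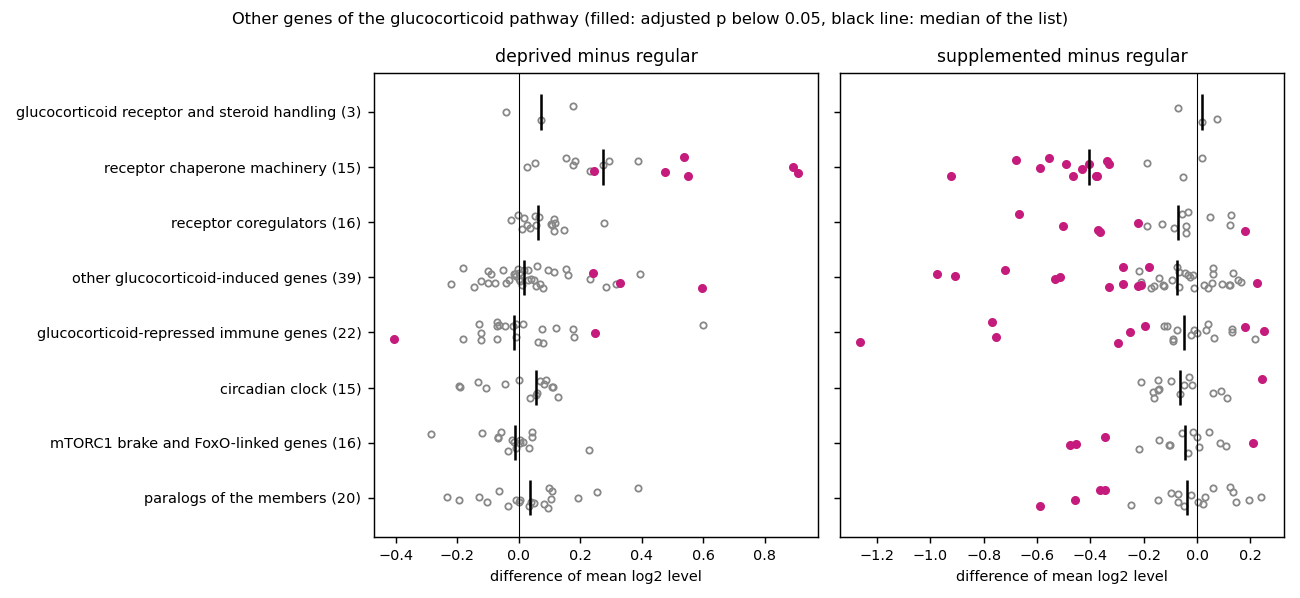
Difference of mean log2 level for each tested gene of 8 pathway lists, as deprived minus regular (left) and supplemented minus regular (right), with the number of tested genes in brackets, filled points for adjusted p below 0.05 and black lines for list medians. The receptor chaperone machinery has medians of 0.28 on the left and -0.41 on the right.

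Markers of sorted and other cells were read beside these values. Cd4, by which the sorted cells are labelled, and Cd3e, a T cell marker, averaged 9.57 ± 0.34 and 10.4 ± 0.12 in the supplemented arrays. In the regular arrays they averaged 10.2 ± 0.06 and 10.7 ± 0.15 (SD, n = 6 per diet). Supplemented minus regular was -0.59 for Cd4 (limma adjusted p = 0.000301) and -0.29 for Cd3e (limma adjusted p = 0.00604). Under quantile normalization and cyclic loess Cd4 still passed at -0.42 and -0.41, but Cd3e did not, at -0.11 and -0.10 (limma adjusted p = 0.296 and 0.303). Of 13 T cell markers, 5 fell and 0 rose on the supplemented diet, against 22.9% of all tested genes lower. Under quantile normalization 4 fell and 1 rose and under cyclic loess 4 fell and 2 rose, and the list median of -0.13 became -0.01 and -0.02. Of 8 B and plasma cell markers, 5 rose, against 10.8% of all tested genes, with 4 under quantile normalization, 3 under cyclic loess and 3 (with 1 that fell) under median centring. The 5 were dim, with mean log2 levels from 5.45 to 6.62, where the lowest level tested was 5.32. Over all tested genes this difference ran against the mean level (r = -0.51). The 3 markers not called differed by 0.20, -0.03 and -0.49. With array spread as a covariate 0 of the 8 were called (3 at an unadjusted p under 0.05). The mean T cell marker level was 9.70 to 9.91 in supplemented arrays and 9.98 to 10.1 in regular arrays. The mean B and plasma cell marker level was 6.44 to 6.80 in supplemented arrays and 6.27 to 6.59 in regular arrays, and the mean myeloid level 6.20 to 6.39 and 6.16 to 6.29 (11 markers). On the deprived diet 0 markers of these 3 lists passed in limma, with 2, 1 and 2 at an unadjusted p under 0.05. The mean level of 8 stromal and endothelial markers was 6.77 to 6.85 in deprived arrays, 6.86 to 6.93 in regular arrays and 6.92 to 6.98 in supplemented arrays, so deprived and regular arrays did not overlap. Of these 8, 0 passed by limma in deprived minus regular (0 at an unadjusted p under 0.05), 1 rose and 1 fell in supplemented minus regular, and 5 rose and 1 fell in supplemented minus deprived. Of all tested genes 10.8% rose and 22.9% fell in supplemented minus regular, and 18.6% rose and 28.6% fell in supplemented minus deprived. The part of the T cell and stromal markers in the values of the 8 genes was not tested. With the B and plasma cell mean as a covariate, Fkbp5, Per1 and Klf9 passed in supplemented minus regular, at -0.66, -0.38 and 0.37, and Sgk1 passed at -0.34. In that fit 32.7% of all tested genes passed. The B and plasma cell mean was itself 6.61 on the supplemented and 6.41 on the regular diet, and its part as a cause was not tested. For Zbtb16, the list of CD8 T, NK and innate-like T cell markers (10 tested) had a mean level of 6.90 to 7.02 in deprived arrays, 6.90 to 7.08 in regular arrays and 6.95 to 7.06 in supplemented arrays. In sorted cells measured in bulk, fewer cells that express a gene and less of its RNA per cell cannot be told apart.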

How the data were processed

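The deposited values are the authors' log2 expression values for 29214 transcript clusters on 17 Affymetrix whole-transcript arrays. RMA, which normalizes all arrays together, and Partek 6.0 were used, per the submitters' processing notes. Biotinylated sense-strand cDNA was made from 250 ng of RNA, per the labels' protocols. No header states the log base, which follows from the values' range. The sources used here do not give the probe file, genome build, filters or scan batches. The platform annotation gave 1 symbol to 15310 clusters, several to 323 and did not list 13581. Of the clusters with 1 symbol, 15279 were matched by Entrez ID to a current RefSeq symbol, whether or not it differed. No pair of arrays held identical values.

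For each gene the cluster with the highest mean over the arrays was kept, and the lowest 25% of genes were left out. One model over the 3 diets was fitted to 10879 genes by lmFit and eBayes of limma (version 3.58.1, R 4.3.3) on 14 residual and 8.19 prior degrees of freedom, with Benjamini-Hochberg adjustment over all tested genes and a threshold of 0.05. The procedure was tested on simulated data. The p-values reflect only the variation among these samples. Correlations used 100000 permutations within diets or exact enumeration (Python 3.11.15, SciPy 1.17.1). The number of arrays limits the precision.

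The members, gene lists and tests were chosen with earlier results of these data known. A gene can be in more than 1 list. Genes named are the 8 members, up to 4 per list (the 2 with the smallest p in deprived minus regular and the 2 in supplemented minus regular), Cd4 and Cd3e, and for each of the 8 the 3 genes of highest correlation. Alternatives covered scaling, filters, choice of cluster, variance model, array weights, replicate block, covariates, the arrays of 2 diets alone, and leaving out arrays.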

Additional observations from a re-analysis of the deposited data

Results flagged for a closer look

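Of 27 groups examined (the 8 genes and array spread in each diet), 3 held an array far from the others by Dixon's 95% criterion, which chance gives in about 1 in 20 groups. Sgk1 in supplemented replicate 3 was 7.22, while the other supplemented arrays ran from 6.46 to 6.70. Without that array Sgk1 passes in supplemented minus regular (-0.33, limma adjusted p = 0.00179, against -0.23 and 0.0762 with it). Per1 in regular replicate 1 was 6.75, while the other regular arrays ran from 6.36 to 6.48; without it Per1 differed by -0.20 in supplemented minus regular (limma adjusted p = 0.113). Ddit4 in deprived replicate 5 was 8.63, while the other deprived arrays ran from 8.83 to 8.89, and this lowest value still stood above all regular arrays. The causes were not tested.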

How the results depend on the processing

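Of the 8 genes, 3 passed in supplemented minus regular, but 5 under quantile normalization, 5 under cyclic loess, 5 with the myeloid marker mean as a covariate, 1 without supplemented replicates 2 and 5 (added after seeing the data), 0 with array spread as a covariate, and 2 to 4 when 1 array was left out. In supplemented minus deprived 6 lay past the threshold, 0 with spread as a covariate and 6 with any 1 array left out; in deprived minus regular, 2 and 2 to 3. In supplemented minus deprived and deprived minus regular, Tsc22d3 and Ddit4 are in all of these counts except those of 0. They were chosen on deprived minus regular, so their counts there are a description and no sign of stability. The regular arrays of supplemented minus regular had entered that choice too. Signs turned for Nr3c1 (supplemented minus deprived 0.11 under loess and 0.12 under quantile; supplemented minus regular -0.0408 under median centring), Klf9 (supplemented minus deprived -0.0203 under median centring, -0.20 with spread, -0.00285 without replicates 2 and 5) and Zbtb16 (supplemented minus regular -0.16 with spread). Among all tested genes, deprived minus regular called 182, and 40 (quantile), 84 (loess), 889 (array weights), 68 (spread), 466 (only 2 diets fitted), 301 (without replicates 2 and 5) and 33 to 244 with 1 array left out. Supplemented minus regular called 3661, and 6901 over all transcript clusters, 0 (spread), 2171 (without replicates 2 and 5) and 2936 to 4035 with 1 array left out; supplemented minus deprived called 5132, and 10785 over all clusters, 0 (spread) and 4451 to 5444. Of the pathway genes, deprived minus regular called 11, and 4 (quantile), 7 (loess), 19 (array weights), 4 (spread), 7 (myeloid mean), 18 (only 2 diets) and 4 to 13 with 1 array left out; supplemented minus regular 45, and 0 (spread), 28 (without replicates 2 and 5) and 34 to 47; supplemented minus deprived 58, and 0 (spread) and 50 to 63. The spread differences ran from 0.0194 to 0.0324 (deprived minus regular), -0.0889 to -0.0756 (supplemented minus regular) and -0.114 to -0.101 (supplemented minus deprived) with 1 array left out. The first of these passed without deprived replicate 5 (exact permutation p = 0.0381) or regular replicate 1 (exact permutation p = 0.0238). The number of correlated pairs stayed at 0 in every alternative run. Replicate numbers did not pair the samples (16 same-numbered pairs, r from -0.21 to 0.19, 4 over 0.1); with the replicate block 145, 3625 and 5332 genes were called in the 3 comparisons, and of the 8 genes Zbtb16 alone changed its call, passing in deprived minus regular. Except where the setting tests fewer or more genes or arrays, the cause was not tested.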
